A study of Homo sapiens with 11 samples.

Results

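The miR-130, miR-301 and miR-454 family was examined in small RNA sequencing data of 6 human tumour cell lines. Its 5 members were taken by name from the deposited tables, which list 2588 mature miRNAs, and are hsa-miR-130a-3p, hsa-miR-130b-3p, hsa-miR-130b-5p, hsa-miR-301a-3p and hsa-miR-454-3p. The rule goes by name and uses no measured value, although the list was drawn up with earlier results of these data known. Of the members, 4 are 3p arms that belong to 1 seed family, whereas miR-130b-5p is the opposite arm of the miR-130b hairpin. The lines were A549 (lung), ES2 (ovary), MV3 (melanoma), BE(2)C (neuroblastoma) and HepG2 (liver) with 2 libraries each and PANC1 (pancreas) with 1, all labelled as parental and untreated. Small RNAs were sequenced by the study to learn which miRNAs these lines express. Libraries of A549, ES2, MV3 and PANC1 (7 libraries) were prepared from 50 ng RNA with the NEXTflex kit, and those of BE(2)C and HepG2 (4 libraries) by Novogene on another sequencer. Preparation and cell line therefore cannot be told apart wherever the 4 NEXTflex lines are set against the 2 Novogene lines. Cells were harvested after 48 h, except that the protocol of BE(2)C gives 24 h while its sample characteristics give 48 h. Each line stands for 1 tumour-derived culture, and PANC1 values have no replicate error.

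MiRNAs guide Argonaute proteins to mRNAs, mostly through bases 2 to 8 of the mature strand, the seed, and thereby lower translation and stability of these mRNAs. A hairpin precursor is cut into a 5p and a 3p strand, of which one is usually retained and the other degraded. Members with the same seed can bind the same sites, so their levels add up in a cell. Family members are known to be expressed in many tumours. The RefSeq sequences are shown first because the shared seed defines the family. Capitals mark bases 2 to 8, all sequences are written 5′ to 3′, and the 3p arms of the family read as follows:
miR-130b-3p: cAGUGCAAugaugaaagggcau
miR-301a-3p: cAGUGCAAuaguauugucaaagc
miR-301b-3p: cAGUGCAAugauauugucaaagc
miR-454-3p: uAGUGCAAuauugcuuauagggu
miR-3666: cAGUGCAAguguagaugccga
miR-4295: cAGUGCAAuguuuuccuu

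Of the 2281 mature miRNAs of the tables that had a RefSeq sequence, these 6 (0.263%) carried AGUGCAA at bases 2 to 8. MiR-130a-3p belongs to the same family by its name. Compared position by position with the seed included, miR-130b-3p and miR-454-3p had the same base at 10 of 22 positions, whereas miR-301a-3p and miR-301b-3p did so at 21 of 23. The last 2 are so alike that reads of one may have been counted as the other, and how the counting treated such reads is not given in the sources used here. The 5p arms, shown because miR-130b-5p is a member with a seed of its own, read:
miR-130b-5p: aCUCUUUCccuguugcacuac
miR-130a-5p: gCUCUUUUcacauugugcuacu
miR-301a-5p: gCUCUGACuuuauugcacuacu
miR-454-5p: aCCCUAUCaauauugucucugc

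Their seeds differ from each other and from that of the 3p arms. Toward their 3′ ends, miR-130b-5p and miR-301a-5p hold UUGCACU, the letters that pair with AGUGCAA, which only 3 of 779 5p arms with a sequence contain (0.385%). The genes lie at 3 places of the genome (GRCh38, GENCODE release 44). MIR130A (chr11:57641198-57641286, plus strand) is in an intron of the lncRNA MIR130AHG. MIR301B (chr22:21652981-21653058, plus strand) and MIR130B (chr22:21653304-21653385, plus strand) are 245 bases apart in an intron and an exon of 1 lncRNA. MIR301A (chr17:59151136-59151221, minus strand) and MIR454 (chr17:59137758-59137872, minus strand) are 13263 bases apart in introns of SKA2, which codes for a protein of spindle and kinetochore. No member has a second genomic copy in the tables.

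Libraries held 1173902 to 12137452 miRNA reads, and levels are given as CPM, reads per 1000000 miRNA reads. A count of 0 allows up to 3 reads, that is 0.247 to 2.56 CPM depending on depth, and this floor covers counting error only. The BE(2)C libraries stood apart from their counterparts: 24.4% of the miRNAs with at least 10 CPM in that line differed more than 2-fold between them, against 0.602% to 5.59% in the other lines with replicates. All 5 members were higher in BE(2)C replicate 2 than in replicate 1, by 1.29-fold (miR-130b-5p) to 2.52-fold (miR-454-3p). The hepatocyte miRNA miR-122-5p stood at 823 CPM in BE(2)C replicate 1 and 5.96 CPM in replicate 2, against 64.0 and 50.0 CPM in HepG2. The part of this difference in the family values was not tested. Of the neural markers, miR-218-5p reached 68760 and 88240 CPM and miR-9-5p 15870 and 17550 CPM in BE(2)C, above all other libraries, and miR-124-3p stood at 17.7 and 28.1 CPM there. The melanocytic miR-211-5p had no read in MV3 or any other line, and the pancreatic acinar miR-216a-5p and miR-217 had none in PANC1. The epithelial miR-141-3p was at most 4.79 CPM anywhere and miR-200c-3p 14.5 to 83.2 CPM everywhere. Of the blood cell markers, miR-142-3p was at 326 and 286 CPM in ES2 and at most 1.33 CPM elsewhere, and miR-223-3p was at most 0.971 CPM.

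MiR-454-3p was the most abundant member with the family seed in each of the 11 libraries. In CPM of the single libraries it stood at 479 and 564 in A549, 1219 and 1119 in ES2, and 1494 and 1721 in MV3. PANC1 held 298.5 CPM (95% Wilson interval 287.8 to 309.5), BE(2)C 89.1 and 225, and HepG2 18.9 and 29.2. The order MV3, ES2, A549, PANC1, BE(2)C and HepG2 had no overlap between neighbouring lines. Line means were 1607 ± 160.3 in MV3 (SD, n = 2) and 24.1 ± 7.23 in HepG2 (SD, n = 2), 66.8-fold apart. Among the lines of the NEXTflex kit the highest and the lowest mean, MV3 and PANC1, were 5.39-fold apart.

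MiR-130b-3p had reads in every library and exceeded 10 CPM in all 6 lines, with a smaller range. Levels were 38.2 and 21.8 CPM in A549, 52.3 and 54.9 in ES2, and 96.3 and 104 in MV3. In PANC1 the level was 50.1 CPM, in BE(2)C 48.9 and 102, and in HepG2 12.5 and 10.9. MV3 and BE(2)C overlapped, as did BE(2)C and ES2, and HepG2 lay below all other libraries. The highest and the lowest line mean differed 8.58-fold, the smallest range of the 5 members.

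MiR-130a-3p, the family member of chromosome 11, was a minor species that stood out in MV3. It reached 63.9 and 60.7 CPM in MV3, whereas A549 had 11.2 and 7.76, ES2 11.4 and 10.02, and BE(2)C 14.1 and 25.4. PANC1 held 1.95 CPM from 19 reads (95% Wilson interval 1.25 to 3.05) and HepG2 0.589 and 0.824 CPM from 7 and 10 reads. Both MV3 libraries were above all others, and A549 and ES2 overlapped. The MV3 mean of 62.3 ± 2.27 CPM (SD, n = 2) was 32.0-fold that of the PANC1 library, which was made with the same kit.

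MiR-301a-3p was weakly expressed throughout. BE(2)C (25.9 and 44.3 CPM) and MV3 (28.1 and 38.1) overlapped at the top, followed by ES2 with 17.4 and 21.8. PANC1 held 10.3 CPM, A549 8.99 and 2.91, the latter from 6 reads, and HepG2 0.421 and 0.906 from 5 and 11 reads. On CPM BE(2)C was thus among the highest lines for miR-301a-3p but second lowest for miR-454-3p, which is encoded in the same host gene. After quantile normalization BE(2)C (14.9) lay below MV3 (40.3) and ES2 (32.15) for miR-301a-3p and was the lowest line for miR-454-3p (68.0).

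MiR-130b-5p, whose seed is not that of the family, was more abundant than miR-130b-3p in all 11 libraries. It stood at 189 and 188 CPM in A549, 715.5 and 605 in ES2, and 762 and 734 in MV3. Levels were 706 CPM in PANC1, 233.5 and 300.5 in BE(2)C, and 38.7 and 40.4 in HepG2. MV3, PANC1 and ES2 formed an upper group in which PANC1 lay within the range of ES2, and A549 and HepG2 each lay below without overlap. In PANC1 and both Novogene lines its level exceeded that of miR-454-3p.

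**Figure D1:**
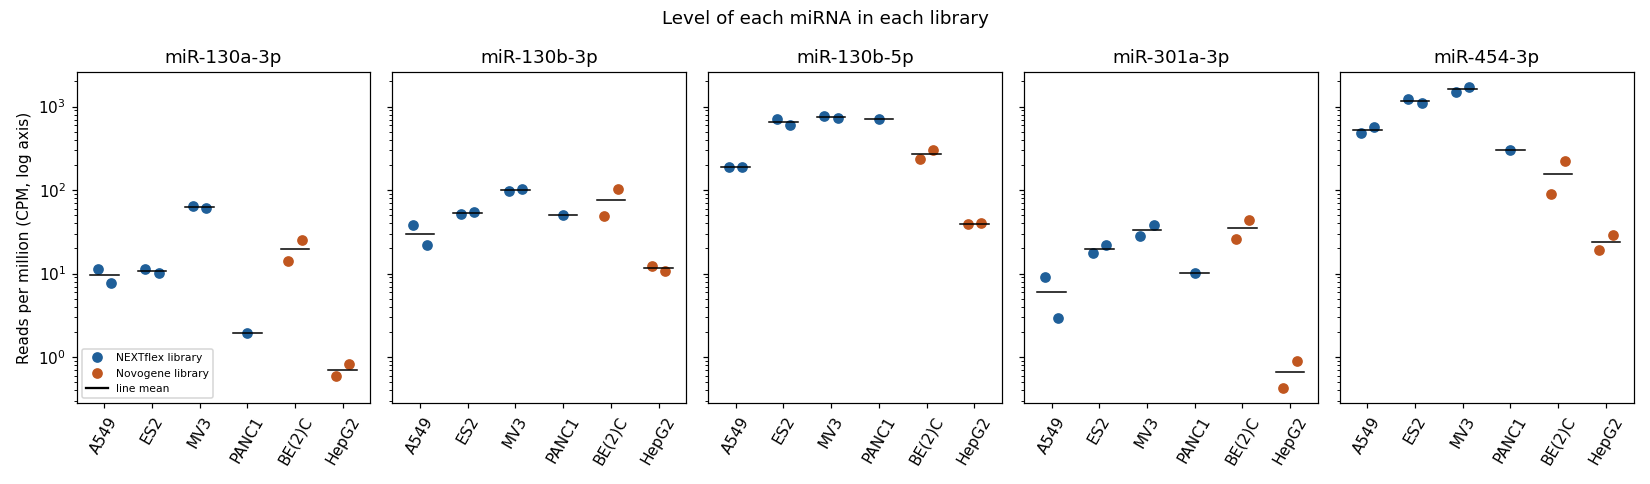
Level of the 5 members in each library in CPM on a log axis, by cell line. Points are libraries (blue NEXTflex, orange Novogene), and bars are line means. MiR-130a-3p peaked in MV3 (63.9 and 60.7 CPM), miR-454-3p fell from MV3 (1494 and 1721 CPM) to HepG2 (18.9 and 29.2 CPM), and HepG2 held the lowest CPM of every member.

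Whether the levels differed between lines was tested on log2(CPM + 1) with limma over all miRNAs that averaged 10 CPM or more in any line, a scale that understates differences of weakly detected miRNAs. The 5 members entered, miR-130b-3p, miR-130b-5p and miR-454-3p through all 6 lines, miR-301a-3p through 4 and miR-130a-3p through 3. Across the 6 lines 5 of 5 members passed the adjusted threshold of 0.05, where 99.3% of the 546 miRNAs tested did, so that the count is near the background. The adjusted p ranged from 1.05e-06 for miR-130b-5p to 0.00131 for miR-130b-3p. Across the 4 NEXTflex lines, which share the preparation, 5 of 5 members passed, where 85.4% of 453 miRNAs did. Adjusted p-values were 0.00017 for miR-130b-5p, 0.000279 for miR-454-3p, 0.00169 for miR-130a-3p, 0.0195 for miR-130b-3p and 0.0426 for miR-301a-3p. TMM factors aim to set the bulk of miRNAs level between libraries. With them, miR-130b-3p (adjusted p = 0.129) and miR-301a-3p (adjusted p = 0.124) no longer passed in the NEXTflex lines, and miR-130b-3p did not pass across the 6 lines either (adjusted p = 0.146). In the NEXTflex lines both calls also ended without ES2 replicate 1 or 2 or MV3 replicate 1 or 2 (adjusted p 0.0587 to 0.0942 for miR-130b-3p and 0.101 to 0.139 for miR-301a-3p), and that of miR-301a-3p without A549 replicate 2 (adjusted p = 0.0661).

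MV3 held more of every member than A549. MiR-130a-3p was higher by 2.61 ± 0.37 on the log2 scale (SE, adjusted p = 0.000659), miR-301a-3p by 2.43 ± 0.51 (adjusted p = 0.00488) and miR-130b-5p by 1.98 ± 0.18 (adjusted p = 6.88e-05). MiR-130b-3p (1.75 ± 0.39, adjusted p = 0.00649) and miR-454-3p (1.62 ± 0.41, adjusted p = 0.0109) passed too, so that 5 of 5 members were higher in MV3. Of all miRNAs tested 57.3% were called, 37.4% as higher in MV3 and 20% as higher in A549. The median of A549 minus MV3 was -1.98 for the members and -0.475 for all miRNAs tested. This shift of all miRNAs depends on the scaling: of the miRNAs called between these lines, 34.8% were higher in A549 on CPM, 56.1% with TMM factors, 46.4% with quantile normalization and 68% with DESeq2. With TMM factors miR-454-3p (A549 minus MV3 -0.82, adjusted p = 0.0835) and miR-130b-3p (-0.96, adjusted p = 0.0875) lost the call. DESeq2 called 2 of the 5, miR-130a-3p and miR-130b-5p, and 228 of all 546 miRNAs tested. MiR-454-3p also lost the call without A549 replicate 1 (adjusted p = 0.0646) or MV3 replicate 2 (adjusted p = 0.0618).

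ES2 exceeded A549 most firmly in miR-130b-5p, by 1.80 ± 0.18 (SE, adjusted p = 9.02e-05), a call that every alternative run kept. MiR-301a-3p (1.71 ± 0.51, adjusted p = 0.0245) and miR-454-3p (1.17 ± 0.41, adjusted p = 0.0464) were called as well, which gives 3 of 5 members, all higher in ES2. Of all miRNAs tested 50.5% were called, 26.9% as higher in ES2 and 23.6% as higher in A549. Both calls ended with TMM factors (adjusted p = 0.056 for miR-301a-3p and 0.0741 for miR-454-3p), with DESeq2 (0.232 and 0.247), which left 1 of the 3 called, and without the filter (0.0645 and 0.149). That of miR-454-3p also ended with quantile normalization (adjusted p = 0.149). Leaving out any A549 or ES2 library ended the call of miR-454-3p (adjusted p between 0.109 and 0.179), as did leaving out any MV3 or HepG2 library, which share in the estimate of the spread (0.0587 to 0.0778). MiR-301a-3p kept it without A549 replicate 1 but not without A549 replicate 2 (adjusted p = 0.117), ES2 replicate 1 (0.0635) or ES2 replicate 2 (0.103). MiR-130b-3p (0.87 ± 0.39 higher in ES2, adjusted p = 0.104, but 0.0136 with quantile normalization and 0.0382 or 0.0376 without BE(2)C replicate 1 or 2) and miR-130a-3p (0.18 ± 0.36, adjusted p = 0.722) did not pass. Of all calls between these lines 46.7% were higher in A549 on CPM and 67% with DESeq2, which called 230 of all 546 miRNAs tested.

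Between ES2 and MV3 the calls narrowed to miR-130a-3p. It was higher in MV3 by 2.44 ± 0.37 (SE, adjusted p = 0.00196), 1 of 5 members, where 32.8% of all miRNAs tested were called, 23.8% as higher in MV3 and 8.97% as higher in ES2. The call remained with TMM factors (ES2 minus MV3 -1.93, adjusted p = 0.00504), quantile normalization (-1.95, adjusted p = 0.00427) and without each library in turn. MiR-130b-3p differed by 0.89 ± 0.39 (adjusted p = 0.131, or 0.0498 without BE(2)C replicate 2), miR-301a-3p by 0.72 ± 0.51 (adjusted p = 0.328), miR-454-3p by 0.46 ± 0.41 (adjusted p = 0.456) and miR-130b-5p by 0.18 ± 0.18 (adjusted p = 0.494), not past the threshold with all libraries. The calls between ES2 and MV3 were 27.4% higher in ES2 on CPM, 47.3% with TMM factors, 43.1% with quantile normalization and 48.1% with DESeq2.

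On CPM all members were higher in BE(2)C than in HepG2, the 2 Novogene lines. The differences were 4.41 ± 0.51 for miR-301a-3p (SE, adjusted p = 8.06e-05), 3.55 ± 0.37 for miR-130a-3p (adjusted p = 4.03e-05), 2.71 ± 0.18 for miR-130b-5p (adjusted p = 2.53e-06), 2.54 ± 0.41 for miR-454-3p (adjusted p = 0.000572) and 2.50 ± 0.39 for miR-130b-3p (adjusted p = 0.000496). These 5 of 5 stand against 83% of all miRNAs tested that were called, 74.7% as higher in BE(2)C and 8.24% as higher in HepG2, and the median of the members (2.71) was close to that of all miRNAs (2.79). Without BE(2)C replicate 1 or 2 the value of miR-454-3p was 3.20 or 1.88. The SE and p-values rest on 1 spread shared by all lines. Replicate SD on the log2 scale was 0.7 in BE(2)C, 0.2 in HepG2 and 0.29 to 0.38 in A549, ES2 and MV3. The error may thus be understated for BE(2)C. Of all calls between these lines 90.1% were higher in BE(2)C on CPM, 64.4% with TMM factors, 50.3% with quantile normalization and 58.8% with DESeq2.

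Relative to the bulk of miRNAs, the members split between BE(2)C and HepG2. The median of BE(2)C minus HepG2 over all miRNAs tested was still 0.488 with TMM factors, so that the bulk was not fully level. With TMM factors, which were 0.166 and 0.217 in HepG2 and 1.02 to 1.87 elsewhere, miR-301a-3p (2.44, adjusted p = 0.00331) and miR-130a-3p (1.52, adjusted p = 0.00581) stayed higher in BE(2)C. MiR-454-3p (-0.41), miR-130b-3p (-0.40) and miR-130b-5p (-0.26) turned to the other sign, without a call. After quantile normalization these 3 were called higher in HepG2, and miR-130a-3p was not called (0.81, adjusted p = 0.062). Of all 546 miRNAs tested, quantile normalization called 177 higher in BE(2)C and 175 higher in HepG2. With TMM factors these counts were 226 and 125. MiR-301a-3p was the 1 member called higher in BE(2)C under every scaling, including quantile normalization (1.71, adjusted p = 0.0178).

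The place of HepG2 among the lines depended on the scaling in the same way. With TMM factors the HepG2 mean of miR-130b-3p was 62.5 ± 17.6 (SD, n = 2), the highest of the lines, overlapping with 54.1 ± 1.89 in MV3 (SD, n = 2). MiR-454-3p was then highest in ES2 (885 ± 56.4, SD, n = 2) and MV3 (869 ± 70.05, SD, n = 2), which overlapped, and lowest in BE(2)C (100.4 ± 55.04, SD, n = 2). MiR-130a-3p kept its top place in MV3 (33.7 ± 1.88 with TMM factors, SD, n = 2), 30.5-fold above PANC1.

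**Figure D2:**
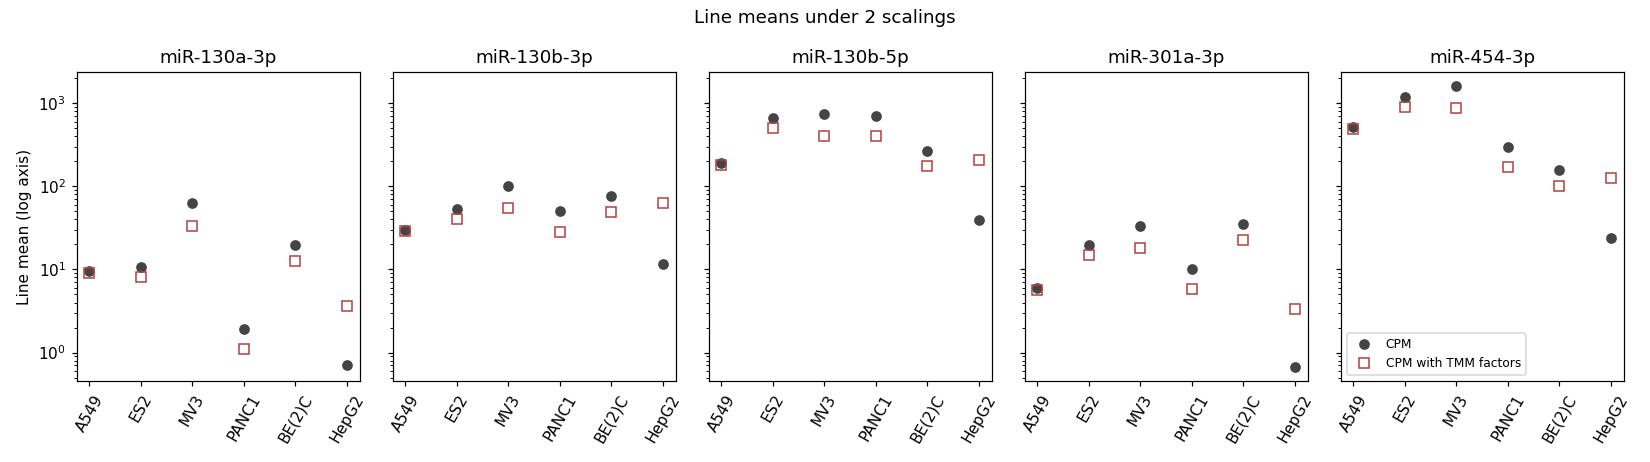
Line means of the 5 members on a log axis, as CPM (filled circles) and as CPM divided by TMM factors over all libraries (open squares). HepG2 moved most, for example from 11.7 to 62.5 for miR-130b-3p and from 39.5 to 210 for miR-130b-5p, whereas MV3 remained highest for miR-130a-3p.

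Reads with the family seed were summed per library over miR-130a-3p, miR-130b-3p, miR-301a-3p, miR-454-3p and miR-301b-3p. MiR-3666 and miR-4295, the others found with this seed among miRNAs that had a sequence, had 0 reads in all 11 libraries. This allows up to 0.247 CPM in the deepest and 2.56 CPM in the shallowest library. The sum was 1806 ± 167 CPM in MV3 (SD, n = 2), 1254 ± 65.8 in ES2 (SD, n = 2) and 568 ± 40.5 in A549 (SD, n = 2). PANC1 held 361 CPM, BE(2)C 350.1 ± 197 (SD, n = 2) and HepG2 38.1 ± 6.49 (SD, n = 2). MV3 thus had 47.4 times the sum of HepG2 on CPM, but 4.90 times separated the highest line (MV3) from the lowest (HepG2) with TMM factors, and 5.01 times separated MV3 from PANC1 within the NEXTflex lines. The spread of BE(2)C covered the PANC1 value.

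The composition of this sum, which a single factor per library such as TMM cannot change, differed between the lines. MiR-454-3p made up 93.2% ± 0.741 of the seed reads in ES2 (SD, n = 2), 91.7% ± 4.10 in A549 (SD, n = 2), 89.0% ± 0.631 in MV3 (SD, n = 2) and 82.7% in PANC1 (95% Wilson interval 81.5% to 83.9%). In HepG2 its share was 62.4% ± 8.35 (SD, n = 2) and in BE(2)C 44.1% ± 2.68 (SD, n = 2). All 7 NEXTflex libraries were above all 4 Novogene libraries, so that preparation and line cannot be told apart here. The Novogene lines also differed from each other in what filled the remainder. HepG2 held 31.3% ± 8.28 miR-130b-3p (SD, n = 2), while the rest of BE(2)C was spread over miR-130b-3p (22.0% ± 1.69), miR-301b-3p (17.3% ± 2.33), miR-301a-3p (10.7% ± 2.27) and miR-130a-3p (5.93% ± 1.05; SD, n = 2 for each). With the 4 listed members alone the share of miR-454-3p in BE(2)C was 53.4%.

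**Figure D3:**
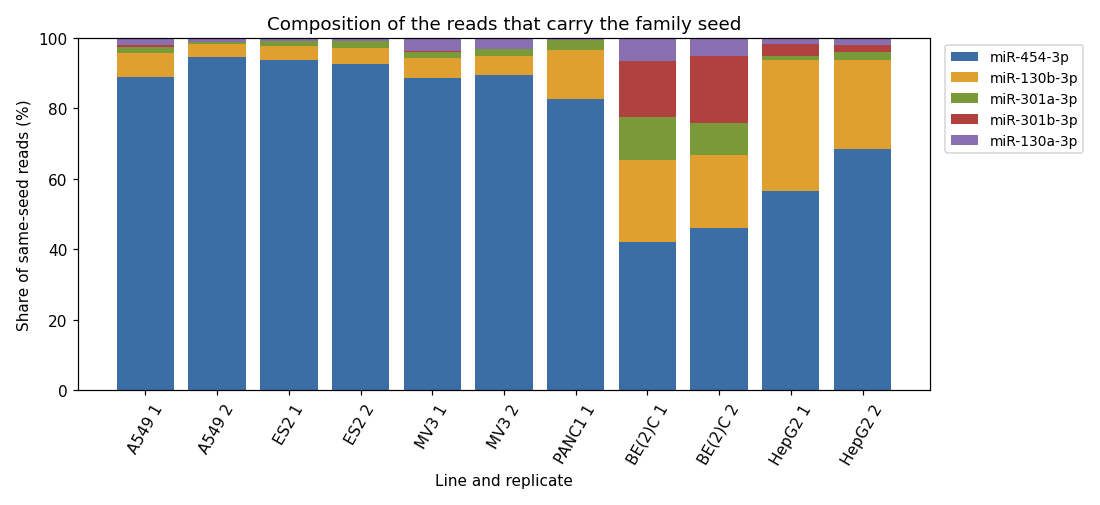
Share of each miRNA among the reads with the family seed, in percent, for each library (line and replicate). MiR-454-3p took 82.7% or more in the means of the 4 NEXTflex lines, 62.4% in HepG2 and 44.1% in BE(2)C, where miR-301b-3p made up 17.3%.

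The balance of the 2 arms of a hairpin was compared next, as a ratio within each library. MiR-130b favoured its 5p arm in all 11 libraries, with a 5p share of 74.7% (BE(2)C replicate 2) to 93.4% (PANC1). The reads were, for example, 6878 of 5p against 488 of 3p in PANC1 and 1965 against 665 in BE(2)C replicate 2. Among 189 hairpins with both arms measured, 47 (24.9%) had more 5p than 3p reads in every library and 36 (19.0%) the reverse. MiR-454 was opposite, with 13.7 to 53.4 times more 3p than 5p reads in all 11 libraries.

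The miR-301a hairpin had more 5p than 3p reads in the Novogene lines, whereas both arms were near balance in most NEXTflex libraries. The 5p share was 43.1% and 40.5% in ES2, 45.0% and 44.9% in MV3, and 49.0% in PANC1. A549 had 40.0% and 71.4%, the latter from 21 reads in all. BE(2)C reached 70.2% and 76.1% and HepG2 93.9% and 90.4%. The 95% Wilson interval covered 50% in every NEXTflex library except A549 replicate 2 (50.04% to 86.2%), for example 42.1% to 55.9% in PANC1, and lay above 50% in every Novogene library (lowest bound 66.6%, BE(2)C replicate 1). In the mean of lines, log2 of 5p over 3p was 2.60 higher in the Novogene lines. The same difference had a median of 0.157 over all 189 hairpins and lay between -4.73 and 5.06 for the middle 90% of them, and 27 hairpins exceeded miR-301a.

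Arm ratios of 67.7% of the 189 hairpins differed across the 6 lines by limma's F test at an adjusted p under 0.05. Of the 4 hairpins of the members, miR-301a (adjusted p = 0.00992), miR-130a (adjusted p = 0.036) and miR-130b (adjusted p = 0.04995) were among them and miR-454 was not (adjusted p = 0.195). Within the NEXTflex lines 14.5% of 179 hairpins passed and 0 of these 4 did (0 also at an unadjusted p under 0.05), with adjusted p-values of 0.794 for miR-301a, 0.179 for miR-130a, 0.25 for miR-130b and 0.31 for miR-454. MiR-130a rested on few reads: 3p exceeded 5p in 10 libraries, and PANC1 had 30 reads of 5p against 19 of 3p (61.2%, 95% Wilson interval 47.2% to 73.6%). Leaving out 1 library ended the call of miR-130b in 7 cases (ES2, HepG2 and MV3 replicates 1 and 2 and PANC1, adjusted p 0.068 to 0.104). It ended that of miR-130a in 7 cases (A549, BE(2)C and HepG2 replicates 1 and 2 and PANC1, adjusted p 0.0724 to 0.0989) and that of miR-301a without HepG2 replicate 1 (adjusted p = 0.0583).

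**Figure D4:**
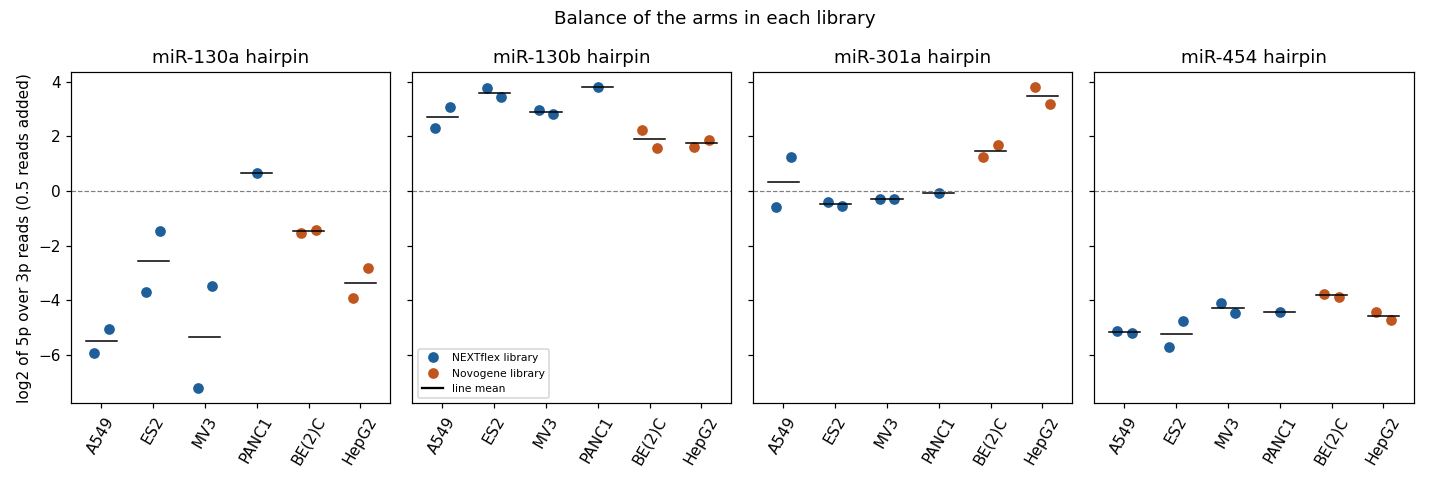
Log2 of 5p over 3p reads (0.5 reads added to each) for the 4 member hairpins in each library. Points are libraries (blue NEXTflex, orange Novogene), bars line means, and the dashed line marks equal arms. MiR-130b lay above the line and miR-454 below it in all 11 libraries, whereas miR-301a lay above it in all 4 Novogene libraries and in 1 NEXTflex library.

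The 2 hairpins inside SKA2 were set against each other, since they can arise from 1 primary transcript. MiR-454-3p exceeded miR-301a-3p 53.3- and 194-fold in A549, 69.9- and 51.4-fold in ES2, 53.2- and 45.2-fold in MV3 and 29.1-fold in PANC1. In HepG2 the ratio was 45.0 and 32.2, on 5 and 11 reads of miR-301a-3p. In BE(2)C it was 3.44 and 5.07, on 195 and 290 reads, with 95% intervals of 2.92 to 4.05 and 4.47 to 5.77, below those of all 9 other libraries. The near-identical miR-301b-3p had 249 and 607 reads in BE(2)C. Whether some reads of one were counted as the other in this ratio was not tested. Across the 6 lines an exact permutation test of F over all 10395 assignments of libraries gave p = 0.0232 (adjusted p = 0.0464 for 2 tests), and across the NEXTflex lines p = 0.324 (adjusted p = 0.324, smallest possible 0.00952). Without BE(2)C replicate 1 or 2, p was 0.051.

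The opposite arms of the same 2 hairpins divided the libraries differently. MiR-454-5p exceeded miR-301a-5p 1.40- to 3.74-fold in the 7 NEXTflex libraries, whereas in the 4 Novogene libraries its level was 0.106 to 0.13 times that of miR-301a-5p. BE(2)C and HepG2 were alike here (0.106 and 0.106 against 0.13 and 0.125), unlike in the 3p arms. This pair was given no test.

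**Figure D5:**
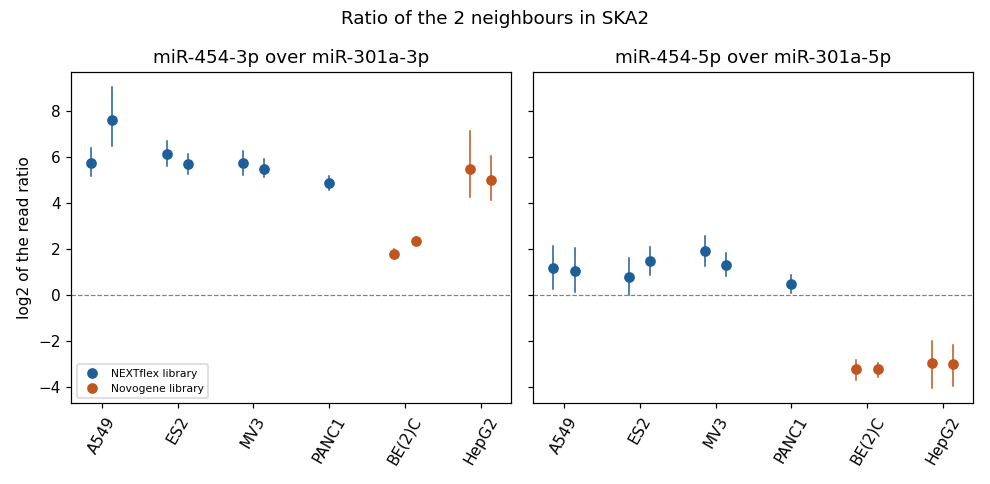
Log2 of the read ratio of miR-454 to miR-301a for the 3p arms (left) and the 5p arms (right) in each library, with 95% intervals for counting error (vertical lines). On the left the 2 BE(2)C libraries (ratios 3.44 and 5.07) lay below all others, and on the right all 4 Novogene libraries lay below the 7 NEXTflex libraries.

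The neighbours on chromosome 22 were also unequal. MiR-301b-3p, encoded 245 bases before miR-130b, stood at 33.1 and 92.8 CPM in BE(2)C and at no more than 5.11 CPM in any other library. PANC1 had 0 reads of either miR-301b arm while it held 488 reads of miR-130b-3p and 6878 of miR-130b-5p, so that miR-130b-3p was at least 163-fold higher (3 reads allowed for 0). In BE(2)C there were 368 and 665 reads of miR-130b-3p against 249 and 607 of miR-301b-3p, and in HepG2 148 and 132 against 13 and 11. In A549, ES2 and MV3 no library had more than 6 reads of miR-301b-3p, against 45 to 161 reads of miR-130b-3p. BE(2)C was thus the 1 line in which miR-301b-3p approached miR-130b-3p.

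The other products of these hairpins, which are not members, were tested in the same fits. MiR-130a-5p did not reach 10 CPM in any line mean (highest 7.13 CPM in BE(2)C) and was not tested, and the miR-301b arms passed the filter only through BE(2)C, the line where they are high, so that their test is not counted here. MiR-301a-5p (adjusted p = 0.000469) and miR-454-5p (adjusted p = 0.000101) passed across the 6 lines, where 99.3% of all miRNAs did. On CPM miR-301a-5p had its top level in BE(2)C (101 ± 56.6 CPM, SD, n = 2) and otherwise lay between 6.64 CPM (A549) and 27.0 CPM (MV3). With TMM factors HepG2 (39.2) lay above MV3 (14.6), and after quantile normalization HepG2 was the highest line. MiR-454-5p was highest in MV3 (81.4 ± 6.53 CPM, SD, n = 2), as its 3p arm was, and lowest in HepG2 (0.956 ± 0.162 CPM, SD, n = 2). Between ES2 and MV3 it was 1.38 ± 0.44 higher in MV3 on the log2 scale (adjusted p = 0.0476), where 32.8% of all miRNAs tested were called, and miR-301a-5p was not called (0.89 ± 0.43, adjusted p = 0.16). Both were called higher in MV3 than in A549 (2.43 ± 0.44 for miR-454-5p, adjusted p = 0.00241, and 1.86 ± 0.43 for miR-301a-5p, adjusted p = 0.007), where 57.3% of all miRNAs were called. On CPM both were also called higher in BE(2)C than in HepG2 (2.49 ± 0.44, adjusted p = 0.000969, and 3.48 ± 0.43, adjusted p = 0.000111), where 83% were called. HepG2 held only 10 and 13 reads of miR-454-5p. After quantile normalization HepG2 had the higher line mean of miR-301a-5p (66.45 against 40.35) and of miR-454-5p (6.51 against 4.82). With TMM factors BE(2)C stayed higher for miR-301a-5p (64.9 against 39.2), and the lines overlapped for miR-454-5p (6.89 against 4.999). Between A549 and ES2 neither passed (adjusted p = 0.0839 and 0.094). The calls of miR-454-5p and miR-301a-5p were not rechecked with the alternative tests and filters or with libraries left out.

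Which miRNAs followed the members most closely across the lines was described by Pearson's r of the 6 line means of log2(CPM + 1). These points share the preparation and the scaling, and r is given without a test. MiR-454-3p was nearest to miR-29c-3p (r = 0.994, 0.943 with TMM factors), miR-15a-5p (0.979, 0.932) and miR-32-3p (0.974, 0.65). MiR-130b-5p was nearest to miR-186-5p (0.984, 0.949), miR-1304-5p (0.983, 0.993) and miR-497-5p (0.979, 0.802). MiR-130a-3p was nearest to miR-10b-3p (0.923, 0.839), miR-320a (0.917, 0.787) and miR-30b-3p (0.913, 0.854). These 9 values stayed above 0.64 under the second scaling, although the places changed. The 3 nearest were picked on CPM. With TMM factors miR-32-3p fell to place 87, miR-497-5p to 17 and miR-320a to 11, while the others stood at places 1 to 5.

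For the other 2 members some values fell further with TMM factors. MiR-130b-3p was nearest to miR-30d-5p (0.994, 0.874 with TMM factors), miR-103a-3p (0.986, 0.952) and miR-26a-2-3p (0.983, 0.307). MiR-301a-3p was nearest to miR-18a-3p (0.984, 0.961), miR-130b-3p (0.981, 0.21) and miR-30d-5p (0.973, -0.229). Within the family, both arms of miR-454 followed each other (0.969, 0.931), both arms of miR-130b did so on CPM alone (0.871, -0.0971), and the SKA2 neighbours miR-454-3p and miR-301a-3p had 0.72 on CPM and 0.293 with TMM factors.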

How the data were processed

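Small RNA-seq of 11 libraries from 6 untreated tumour cell lines was used, grouped by the cell line label. Submitters' processing notes name cutadapt 1.14, Bowtie2 2.3.2, SAMtools 1.5, featureCounts 1.5.3, edgeR 3.30.3 and the build hg38. The authors deposited 1 table per line with 2813 rows for 2588 mature miRNAs. The deposited PANC1 values are CPM. Deposited by the authors for the other 5 tables is a scaled signal, CPM divided by a TMM factor set within each table. Whole reads were recovered for 100% of the values (tolerance 0.02 reads), rows of one miRNA were summed, and each library was rescaled to 1000000, since the tables had been normalized separately.

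Tests used limma 3.58.1 in R 4.3.3 on log2(CPM + 1) with line as the single term and trended eBayes, for miRNAs that averaged 10 CPM or more in any line, and Benjamini-Hochberg adjustment over all features at 0.05. Contrasts are two-sided and were made for 4 pairs of lines with 2 libraries and 1 preparation. They share 1 estimate of the spread over all 11 libraries, although replicates of BE(2)C differed more than those of other lines. Their error may be understated for BE(2)C and overstated for A549, ES2 and MV3. Arm ratios used log2((5p + 0.5)/(3p + 0.5)) reads for hairpins with both arms at 1 CPM or more on average. The ratio of miR-454-3p to miR-301a-3p was tested by exact permutation. Intervals for shares are 95% Wilson intervals and cover counting error only. The count test of edgeR 4.0.16 on the recovered reads called 544 of 546 miRNAs across the lines and 414 of 453 in the NEXTflex lines. DESeq2 1.42.0, other scalings, pseudocounts and filters and leaving out each library were alternatives. The fits were tested on simulated data with the same spread in all lines, so that the unequal spread of these libraries was not covered.

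The 5 members, the other products of their hairpins and of MIR301B, the same-seed miRNAs, the markers and the rule of 3 nearest miRNAs per member were chosen with earlier results of these data known. Mature sequences are RefSeq entries (GRCh38.p14), matched by name for 10 of 12 miRNAs. The study calls the libraries biological replicates. The labels do not say how the cultures were separated, so that p-values measure the spread between these libraries, which may be technical.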

Additional observations from a re-analysis of the deposited data

Results flagged for a closer look

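Across the 6 lines 4 ratios taken within a library differed. The 5p to 3p ratio did so for miR-301a (adjusted p = 0.00992 by limma, log2 means 3.50 in HepG2 and -0.47 in ES2), miR-130a (adjusted p = 0.036) and miR-130b (adjusted p = 0.04995). As 67.7% of all 189 hairpins passed this test, 3 of 4 member hairpins is near the background. The calls of miR-130a and miR-130b each ended in 7 fits that left out 1 library (adjusted p 0.0724 to 0.0989 and 0.068 to 0.104), that of miR-130b also with a replicate block (adjusted p = 0.0893), and that of miR-301a without HepG2 replicate 1 (adjusted p = 0.0583). Within the 4 NEXTflex lines the arm ratios did not pass, and preparation and line cannot be told apart for them.

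The ratio of miR-454-3p to miR-301a-3p also differed (exact permutation p = 0.0232), with 3.44 and 5.07 in BE(2)C against 29.1 or more in the other lines. HepG2, of the same preparation as BE(2)C, had 45.0 and 32.2, on only 5 and 11 reads of miR-301a-3p. The NEXTflex libraries had 29.1 to 194. For the 5p arms, miR-454-5p over miR-301a-5p was 0.106 to 0.13 in the Novogene libraries and 1.40 to 3.74 in the NEXTflex libraries. Whether preparation had a part in the ratio of the 3p arms was not tested. Without BE(2)C replicate 1 or 2 the exact permutation p was 0.051, and within the NEXTflex lines it was 0.324.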

How the results depend on the processing

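Of the recomputed values 834 kept direction and side of the threshold or stayed within their spread, 63 lost a call, 5 gained one, 16 moved and 16 changed sign, and the cause was not tested unless a value is given. Part of the 834 could not change. Fits of the NEXTflex lines were also counted without BE(2)C or HepG2 libraries, which they do not contain. The highest to lowest summed level was likewise counted without libraries of lines other than MV3 and HepG2. Without the filter 837 of 1608 miRNAs differed across the 6 lines and 691 of 1608 between BE(2)C and HepG2, against 542 and 453 of 546 with it. The counts rose while the shares fell. With both arms at 10 CPM or more, where fewer hairpins were tested, 84 differed across the 6 lines and 12 across the NEXTflex lines. The latter count was 26 with all libraries and 0 (without MV3 replicate 1) to 13 with 1 NEXTflex library left out. The highest to lowest summed level was 4.90 with TMM factors, 10.6 (MV3 to BE(2)C) after quantile normalization and 5.01 in the NEXTflex lines, against 42.3 to 53.9 without 1 library. The share of miR-454-3p in BE(2)C was 53.4% with the 4 listed members. The ratio of miR-454-3p to miR-301a-3p gave an exact permutation p of 0.00254 to 0.051 across the 6 lines with 1 library left out, highest without either BE(2)C library, and of 0.0444 (without A549 replicate 1) to 0.622 in the NEXTflex lines.

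Sign changes with TMM factors, quantile normalization or DESeq2 were as follows, on the log2 scale. A549 minus ES2 for miR-130a-3p became 0.11 with TMM factors, 0.50 with DESeq2 and 0.064 without A549 replicate 2. ES2 minus MV3 for miR-130b-5p became 0.30, 0.10 and 0.24 with TMM factors, quantile normalization and DESeq2, and for miR-454-3p 0.028 with TMM factors. BE(2)C minus HepG2 became -0.40, -1.75 and -0.54 for miR-130b-3p, -0.26, -1.43 and -0.42 for miR-130b-5p and -0.41, -1.58 and -0.52 for miR-454-3p in the same order, where the 3 quantile values and DESeq2 for miR-130b-5p (adjusted p = 0.00456) were past the threshold.

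Replicate numbers did not pair the libraries: same-numbered libraries of 2 lines had correlated deviations (r over 0.1) in 1 of 10 pairs of lines, with r from -0.0531 to 0.109, and r was above 0 in 6, so that not every library was most like its own number. With a replicate block 535 of 546 miRNAs differed across the 6 lines and 10 of 179 hairpins in arm ratio across the NEXTflex lines. MiR-301a-3p in the NEXTflex lines (adjusted p = 0.0813) and the arm ratio of miR-130b (adjusted p = 0.0893) lost their calls with the block.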
